A study of Mus musculus with 72 samples.

Results

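Antioxidant enzymes remove superoxide and peroxides, and the NRF2 axis is the transcriptional system that sets the level of many of them. A list of 38 mouse genes was followed through liver, kidney, heart and brain of mice fed coenzyme Q10. The genes were matched by gene symbol to the probe sets of an Affymetrix expression array, and 35 of the 38 had at least 1 probe set carrying that symbol alone. These 35 genes were read by 73 probe sets, out of 18193 genes and 45037 probe sets in all. Prdx1, Prdx5 and Prdx6 are not analysed here. Where a gene had several probe sets, the brightest over all 72 arrays was used.

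The animals were female SAMP1 mice, an inbred strain of the senescence accelerated mouse series that ages early. They received QH2 (the reduced form of coenzyme Q10), Q10 (the oxidised form) or a control diet, the 2 compounds at 500 mg per kg of body weight a day, from 4 weeks of age. Tissues were taken after 14 months of feeding, at an age of 15 months, or after 6 months, at 7 months, from 3 mice per group, which gave 24 groups of 3 arrays. No label names a transgene or deletion. Mice lived 3 to 6 in a cage with the grouping kept, so diet and cage may coincide. Age, time on the diet and any processing of the 2 ages on separate occasions cannot be told apart here, and every statement on 14 against 6 months covers all of them.

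NRF2, encoded by Nfe2l2, is a transcription factor that KEAP1 holds in the cytoplasm and marks for degradation until oxidants or electrophiles modify KEAP1. In the nucleus NRF2 pairs with small MAF proteins on the antioxidant response element and drives genes of glutathione synthesis, thioredoxin recycling, quinone reduction and haem breakdown. Superoxide dismutases turn superoxide into hydrogen peroxide, which catalase, glutathione peroxidases and peroxiredoxins then reduce. Glutathione reductase and the thioredoxin reductases restore the spent thiols. Metallothioneins are small cysteine-rich proteins that bind zinc and copper, answer chiefly to the metal-sensing factor MTF1 and scavenge radicals. Coenzyme Q10 itself cycles between its oxidised and reduced forms in the mitochondrial membrane, and NQO1 is among the enzymes that can reduce it.

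NRF2 and MTF1 act through short elements in promoters, so these are shown first. A RefSeq window from 250 bases before to 50 bases after the transcription start (GRCm38.p6) was given for 30 of the 35 measured genes, with several windows for some, and not for Sod3, Msra, Gsr, Gclc and Hmox1. The core of the antioxidant response element, searched as TGACNNNGC on both strands, was present in at least 1 window of 7 of the 30 genes (23.333%), against 13.991% of all 27025 genes with a window. The stretches around these 7 matches are shown because they belong to the NRF2 gene itself and to 6 of the measured enzymes and metal binders, with the core in capitals:
Nfe2l2, chr2:75704879-75704913, minus strand: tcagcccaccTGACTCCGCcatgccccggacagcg
Gclm, chr3:122245407-122245447, plus strand: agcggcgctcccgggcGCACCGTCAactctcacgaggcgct
Srxn1, chr2:152105536-152105573, plus strand: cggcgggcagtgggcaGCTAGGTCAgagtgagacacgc
Txnrd1, chr10:82859098-82859138, plus strand: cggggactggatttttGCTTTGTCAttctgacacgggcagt
Sod1, chr16:90220690-90220730, plus strand: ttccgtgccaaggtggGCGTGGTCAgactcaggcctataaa
Msrb2, chr2:19371659-19371685, plus strand: aggaaacccgttggtgGCAGCGTCAtg
Mt2, chr8:94172523-94172563, plus strand: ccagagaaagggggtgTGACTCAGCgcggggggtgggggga
The metal response element core, searched as TGCACNC or TGCGCNC on both strands, was present in at least 1 window of 9 of the 30 genes (30.0%), against 28.233% of all genes. At least 3 matches stood in a window of Mt1, Mt2 and Gclm, which is 3 of 30 genes (10.0%) against 2.268% of all genes. The Mt1 and Mt2 windows are printed whole, since both metallothioneins were higher at 14 months in brain, with every match in capitals (3 in Mt1 and 4 in Mt2, read on the plus strand):
Mt1, chr8:94178839-94179138, plus strand: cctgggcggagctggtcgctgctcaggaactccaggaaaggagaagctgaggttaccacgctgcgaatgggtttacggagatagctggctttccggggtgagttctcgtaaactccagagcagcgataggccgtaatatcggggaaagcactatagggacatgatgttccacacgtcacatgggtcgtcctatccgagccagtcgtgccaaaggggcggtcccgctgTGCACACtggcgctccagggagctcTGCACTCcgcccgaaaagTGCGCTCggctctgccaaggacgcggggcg
Mt2, chr8:94172368-94172667, plus strand: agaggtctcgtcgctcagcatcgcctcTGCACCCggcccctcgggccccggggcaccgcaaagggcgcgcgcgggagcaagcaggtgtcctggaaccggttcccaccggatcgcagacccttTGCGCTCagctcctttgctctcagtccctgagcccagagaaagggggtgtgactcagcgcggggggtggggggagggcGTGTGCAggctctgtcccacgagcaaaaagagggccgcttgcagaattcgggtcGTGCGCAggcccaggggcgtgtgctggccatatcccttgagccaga
The 2 searches share no letters of a match in the Mt2 window. A match describes letters in the window and is not evidence of binding.

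The arrays held 1 signal per probe set on a linear scale. The mean signal per array before scaling lay between 140.5 and 278.7 in brain, 107.8 and 278.7 in heart, 131.5 and 261.5 in kidney, and 84.6 and 171.9 in liver. Quantile normalisation within a tissue removed these differences before log2(signal + 1) was taken. Tests are limma's moderated tests with Benjamini-Hochberg adjustment over the 27022 probe sets of a tissue that passed a filter on dim signal, and a gene is called at adjusted p under 0.05. All fold changes are log2, first group over second. The tissue labels matched their markers: 8 of 8 neuron, 8 of 8 kidney tubule, 7 of 8 cardiomyocyte and 6 of 7 hepatocyte markers had their highest median in their own tissue. The filter passed 35 of the 35 genes in brain, 34 in liver (all but Slc7a11) and 33 in kidney and heart (all but Slc7a11 and Gpx2). Gpx2 is the gastrointestinal glutathione peroxidase and Slc7a11 the cystine importer that feeds glutathione synthesis. In whole tissue, fewer cells of a type and less RNA per cell cannot be told apart.

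Tissue levels were compared first, on all 72 arrays normalised together, with 18 arrays per tissue and 33 of the 35 genes tested. A tissue counts as highest when it was called above each of the other 3. Liver was highest for 8 genes (16.8% of all probe sets tested were highest there), kidney for 8 (10.8%), heart for 8 (20.4%) and brain for 1 (22.9%). Brain was lowest for 18 of the 33 genes (27.4% of all probe sets were lowest there), heart for 4 (14.9%), liver for 3 (18.8%) and kidney for 0 (6.14%). The other 8 genes had no tissue above all others. With trimmed-mean scaling Txn1 and Gclm were no longer highest in kidney, and with the values as deposited Gpx1, Txnrd2 and Keap1 were no longer highest in liver nor Glrx2 in heart. Of the lowest levels, the values as deposited also lost Txn1, Txnrd1, Glrx, Gsr and Nqo1 in brain, which left 13 genes lowest there where the share of all probe sets was 6.63%, and Srxn1 in heart. Trimmed-mean scaling lost Prdx2 in liver and Sod1 in heart. The plot of tissue levels shows each gene against its own average. The labels do not tie the arrays of one tissue to those of another by mouse.

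**Figure D1:**
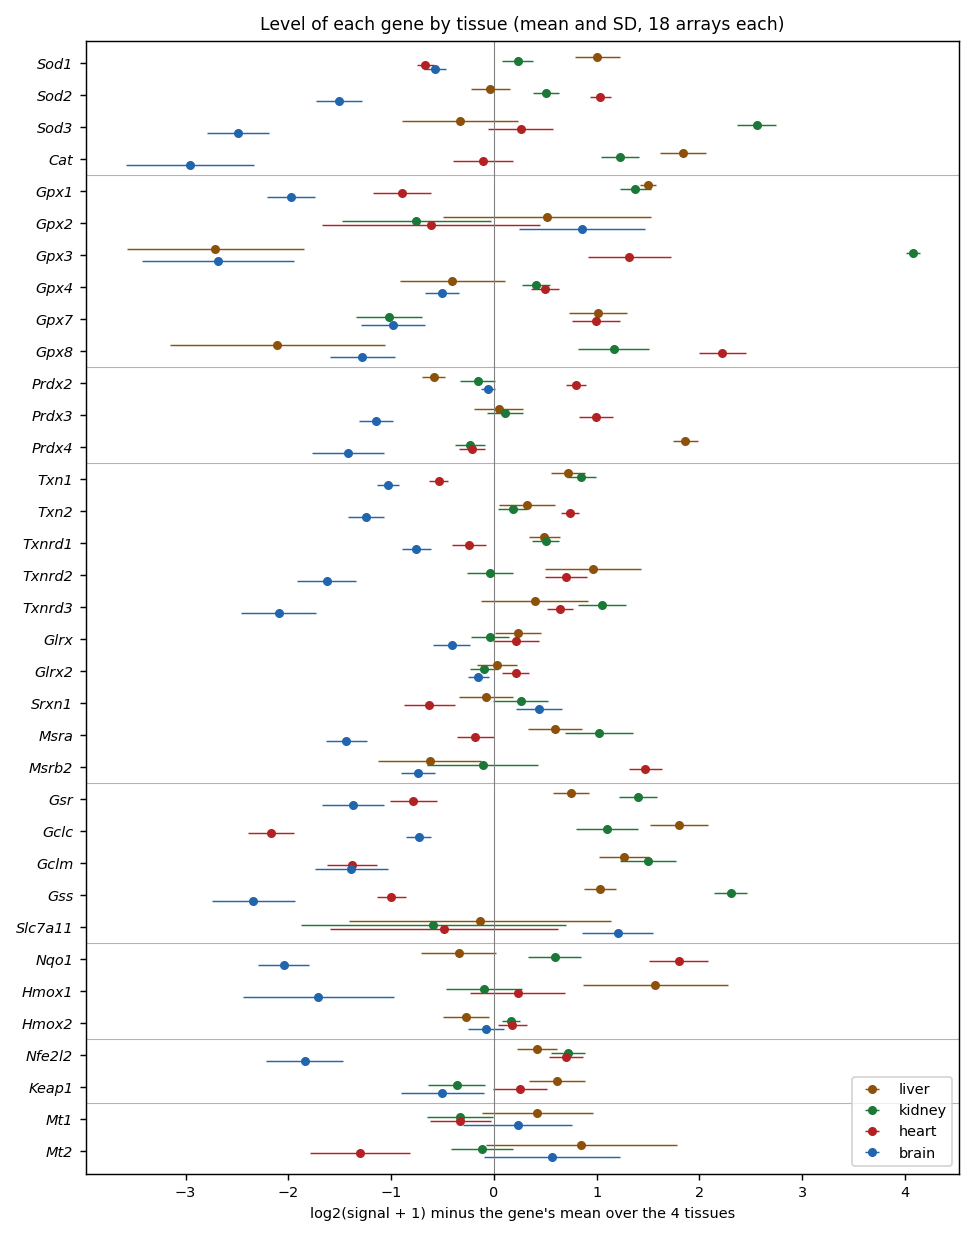
Mean log2(signal + 1) of each of the 35 genes in 4 tissues, minus the gene's mean over the tissues (points, with SD over 18 arrays). Brain was called lowest for 18 of the 33 tested genes, and Gpx3 in kidney stands far above its level in the other tissues.

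Among the superoxide-handling enzymes, each dismutase peaked in a different tissue. Sod1, the cytosolic copper-zinc form, was highest in liver, with a median signal of 4698 there (2807 to 5439), 2626 in kidney, 1515 in brain and 1414 in heart. Sod2, the manganese form of the mitochondrial matrix, was highest in heart at 3691 (3227 to 4419.9), followed by 2567 in kidney, 1793 in liver and 614 in brain. Sod3, the secreted form, was highest in kidney at 982 (817 to 1315), against 206 in heart, 121 in liver and 30.5 in brain. For these 3 genes all 4 tissues differed from each other. Catalase, the peroxisomal enzyme that splits hydrogen peroxide, was ordered liver (5083), kidney (3291), heart (1334) and brain (176).

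Among the glutathione peroxidases, Gpx3, the plasma glutathione peroxidase secreted mainly by kidney tubules, had a median signal of 11628 in kidney (10187 to 12243), 1725 in heart, 132 in brain and 87.3 in liver. The liver and brain values of Gpx3 were not told apart (adjusted p = 0.856). Gpx1, the abundant cytosolic selenoenzyme, was highest in liver at 7471 against 7055 in kidney, a small step that was lost in each fit that left out 1 replicate number. It was 1340.03 in heart and 707 in brain. Gpx4, which reduces lipid hydroperoxides in membranes, lay in pairs: 4500.2 in heart and 4222 in kidney, then 2659.8 in liver and 2157 in brain, with neither pair told apart. Of the endoplasmic reticulum forms, Gpx8 was highest in heart at 301 and lowest in liver at 15.9, while Gpx7 was 106 in liver and 105 in heart, against 27.5 in brain and 25.8 in kidney.

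The peroxiredoxins and the thioredoxin system had no common leading tissue. Prdx3, Txn2, Glrx2 and Msrb2, whose proteins work in mitochondria, were each highest in heart. Prdx3 had a median of 2381 there, 1259 in kidney, 1183 in liver and 536 in brain, and kidney and liver were not told apart. Msrb2, which repairs oxidised methionine, was 529.8 in heart, 192 in kidney, 135 in liver and 110.3 in brain. Prdx2, the cytosolic peroxiredoxin abundant in red cells, was also highest in heart at 3441 and lowest in liver at 1309. Prdx4, the secretory-pathway peroxiredoxin, was 1433 in liver against 347 in heart, 334 in kidney and 155 in brain. The mitochondrial reductase Txnrd2 was highest in liver (258, against 209.6 in heart), while Txn1, Txnrd3 and Msra were highest in kidney. The cytosolic reductase Txnrd1 had 690.3 in kidney and 659.6 in liver, which were not told apart. Srxn1, sulfiredoxin, which reactivates over-oxidised peroxiredoxins, was the 1 gene highest in brain, at 258 against 216 in kidney, 177 in liver and 115 in heart. That call was lost without replicate 2 or without replicate 3.

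Of the genes of glutathione supply, Gclc was highest in liver and Gclm, Gss and Gsr in kidney, while Slc7a11 was too dim to be compared. Gclc, the catalytic subunit of the rate-limiting enzyme glutamate-cysteine ligase, was 2178 in liver, 1278 in kidney, 362 in brain and 138 in heart. Its modifier subunit Gclm was 1595 in kidney and 1256 in liver, against 218 in heart and 195 in brain. Gss, glutathione synthetase, was 908 in kidney, 362 in liver, 89.5 in heart and 33.6 in brain. Gsr is glutathione reductase. Nqo1, the quinone reductase, was highest in heart at 438, with 192 in kidney, 93.1 in liver and 28.5 in brain. Hmox1, the inducible haem oxygenase, was highest in liver at 128, with 45.2 in heart, 34.9 in kidney and 12.0 in brain, whereas the constitutive Hmox2 was lowest in liver at 408 and reached 597 in heart. Nfe2l2 was 702 in heart and 693 in kidney, which were not told apart, then 583 in liver and 122 in brain. Keap1 was highest in liver at 290.2, and its kidney (146) and brain (135) levels were not told apart. Mt1 did not follow the rest: it was 3918 in liver and 3632 in brain, against 2648 in kidney and 2541 in heart, with neither pair told apart. Mt2 was lowest in heart at 433.

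Diets were compared within each tissue and duration, which made 24 comparisons, since each of the 2 durations in a tissue holds 3 pairs of diets. Members were called in 4 of the 24, all at 14 months, all involving Q10, and all in liver or kidney, and 11 members were called in any. The other 20 comparisons called 0 members by the brightest probe set. Another Sod1 probe set was called in liver at 6 months for Q10 against control (1.15, adjusted p = 0.0405). The brightest Sod1 probe set read 0.23 there (adjusted p = 0.744). In the 12 comparisons at 6 months, limma called 0 of 405 gene tests, the smallest adjusted p was 0.356 and 26 tests had an unadjusted p under 0.05. Of all probe sets, these comparisons called 0.807% for Q10 against control and 0.988% for QH2 against Q10 in liver, 0.192% for QH2 against control and 0.3% for QH2 against Q10 in kidney, 0.0666% for QH2 against Q10 in heart, and 0% elsewhere. QH2 against control called 0 of 270 gene tests over all tissues and durations (0% to 0.192% of all probe sets), with a smallest adjusted p of 0.329 and 21 tests at an unadjusted p under 0.05. The counts of 26 and 21 have no share of all probe sets at that threshold beside them. They are not read as a result about the members. With 3 arrays against 3, the 95% interval of a member's log2 fold change reached a median of 0.26 to either side in brain, 0.29 in heart, 0.26 in kidney and 0.39 in liver. Exact permutation of 3 against 3 arrays cannot give a p below 0.1, so no single-gene permutation test could pass. The heat map of diet effects gives every gene and comparison.

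**Figure D2:**
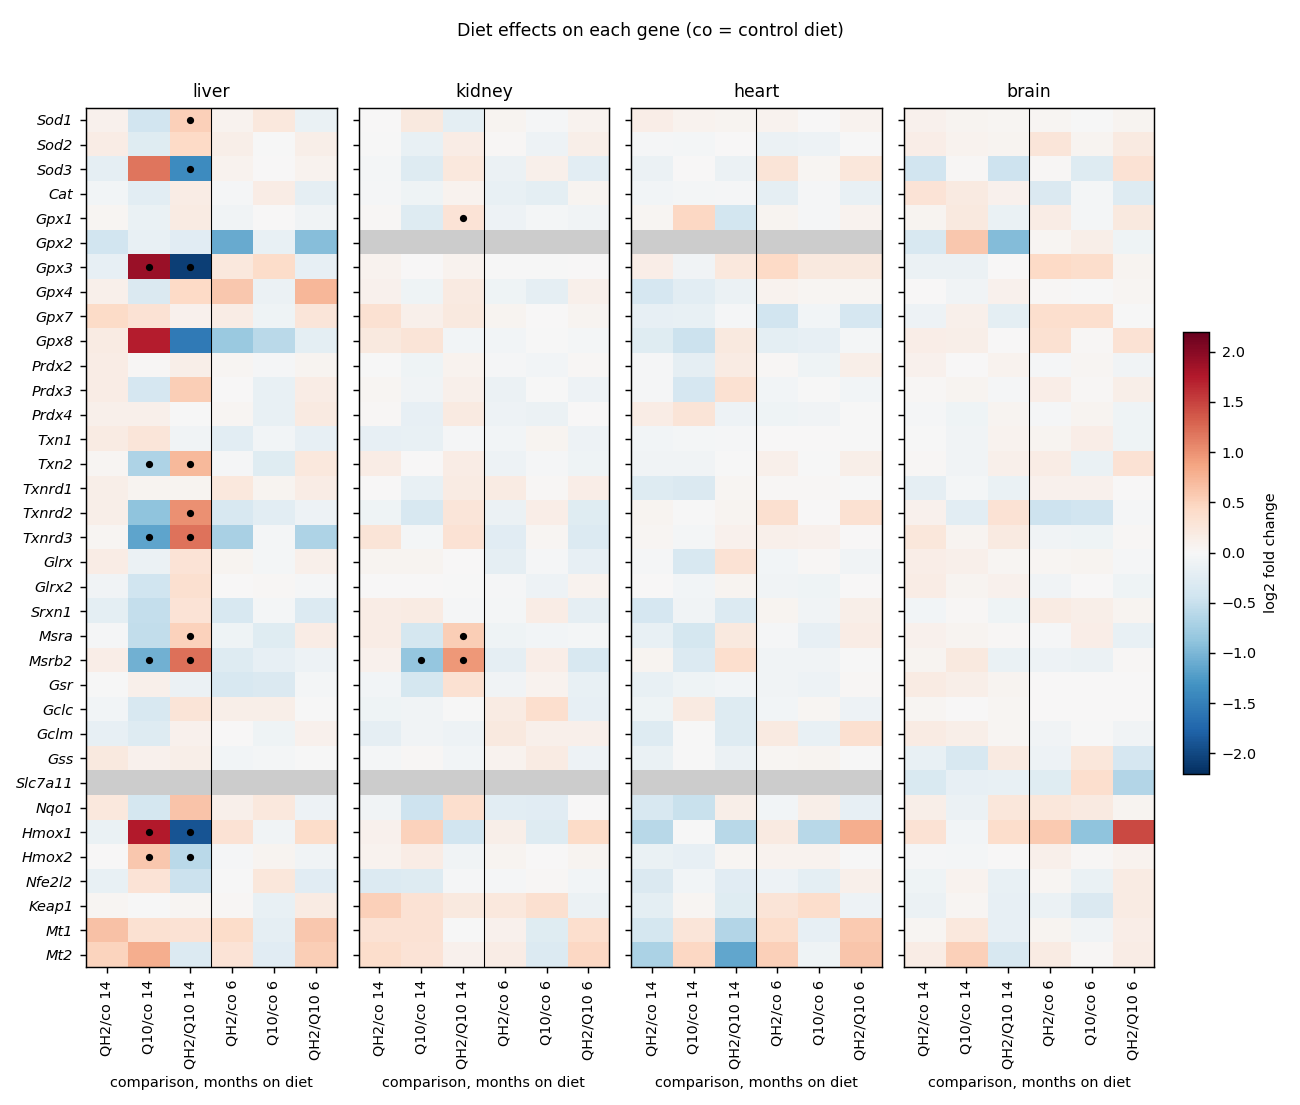
Log2 fold change of each gene for QH2 against control, Q10 against control and QH2 against Q10 in 4 tissues, after 14 and 6 months (colour scale; black dots mark adjusted p under 0.05, grey cells were not tested). Dots stand only in liver and kidney at 14 months, in the columns that involve Q10.

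In liver at 14 months, Q10 against control called 6 of 34 genes, where the share over all probe sets was 5.98%, with 3.73% up and 2.26% down. Both haem oxygenases and Gpx3 rose on Q10, and Txn2, Txnrd3 and Msrb2 fell. Hmox1, which breaks down haem and releases iron, carbon monoxide and biliverdin, had signals of 71.7, 136 and 209.7 on Q10 and 41.2, 28.7 and 42.8 on control diet, a log2 fold change of 1.75 ± 0.31 (SE, adjusted p = 0.00248). All 3 Q10 livers lay above all 3 controls. Hmox2 gave 329.7, 468 and 417 on Q10 and 255, 264 and 273 on control diet, a change of 0.60 ± 0.14 (SE, adjusted p = 0.0150), again with no overlap. Gpx3 was 71.0, 656 and 132 on Q10, with the second array far above the others, and 49.3, 47.4 and 48.7 on control diet (1.90 ± 0.48 SE, adjusted p = 0.0246).

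The 3 genes that fell belong to the thioredoxin system, of which 3 of 10 tested genes were called. Txn2, mitochondrial thioredoxin, was 463, 281 and 235 on Q10 and 477, 537 and 489.7 on control diet (-0.68 ± 0.18 SE, adjusted p = 0.0360). Txnrd3, a reductase that handles both thioredoxin and glutathione, was 71.5, 31.8 and 34.6 on Q10 and 97.2, 97.7 and 95.8 on control diet (-1.16 ± 0.28 SE, adjusted p = 0.0195). Msrb2 was 50.3, 20.9 and 36.7 on Q10 and 76.0, 77.2 and 63.1 on control diet (-1.06 ± 0.25 SE, adjusted p = 0.0173). In each of the 3, Q10 arrays 2 and 3 were lowest and the groups did not overlap. The other probe sets of Txn2 (-0.62 and -0.60) and Txnrd3 (-0.41 and -0.82) were not called, and their groups overlapped. Sod1 (-0.43, adjusted p = 0.111), Sod3 (1.18, adjusted p = 0.0667), Txnrd2 (-0.88, adjusted p = 0.0729) and Msra (-0.53, adjusted p = 0.0536) did not pass, nor did Gpx8, at 9.68, 19.9 and 10.3 on Q10 and 6.79, 1.77 and 2.17 on control diet (1.73, adjusted p = 0.0637). Those Gpx8 signals are dim, where the median deposited signal of a liver array was 7.5 to 21.5. The median over all 34 genes was -0.14, beside -0.10 for all probe sets, and 14 of the 34 had an unadjusted p under 0.05, where 21.5% of all probe sets had one.

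Markers of other cells moved with these livers. The summed signal of 13 macrophage markers, none of them at 0, was 6512, 17549 and 20612 on Q10 and 2263, 1024 and 2429 on control diet. Against control, 13 of 13 macrophage, 5 of 5 B cell, 6 of 7 neutrophil and 5 of 6 cell cycle markers were called higher, as were 1 of 4 T cell and 2 of 7 endothelial markers. Hepatocyte markers summed to 65035, 49879.6 and 65697 on Q10 and 66788, 65740.1 and 64834 on control diet. The ratio of Actb 3' to 5' probe sets, a measure of RNA integrity, was 3.05, 1.59 and 1.98 on Q10 and 3.49, 3.88 and 4.11 on control diet. Without Q10 arrays 2 and 3, a fit added after the data were seen that lends the lone Q10 array the spread of the other groups, 0 of 34 genes were called (adjusted p = 0.561 for Hmox1, at 0.94), and likewise 0 with the Actb ratio as a covariate (Hmox1 1.24, adjusted p = 0.483) or with only the groups compared in the fit (Hmox1 adjusted p = 0.101). Of the 6 fits that left out 1 array, Hmox1 kept its call in all, and each of the other 5 genes lost it in 4 or 5 (adjusted p up to 0.182). The part of cell content in these changes was not tested.

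QH2 and Q10 are the reduced and oxidised states of the same quinone, and at the same dose and duration their livers differed at 14 months in 10 of 34 genes, where 9.6% of all probe sets were called, with 4.78% higher and 4.82% lower on QH2. The signals on QH2 lay close to control and those on Q10 stood apart. Hmox1 was 35.7, 31.8 and 32.7 on QH2, against 71.7, 136 and 209.7 on Q10 (-1.90 ± 0.31 SE, adjusted p = 0.00143). Gpx3 was 41.2, 45.9 and 41.3 on QH2 against 71.0, 656 and 132 on Q10 (-2.08 ± 0.48 SE, adjusted p = 0.0117), and Sod3 was 34.2, 67.4 and 58.2 on QH2 against 91.3, 270.4 and 100.2 on Q10 (-1.38 ± 0.37 SE, adjusted p = 0.0250). Hmox2 was 269.8, 281 and 246 on QH2 and 329.7, 468 and 417 on Q10 (-0.59 ± 0.14 SE, adjusted p = 0.0121). These 4 genes were lower on QH2, with no overlap between the groups. The plot of single liver arrays shows them together with the genes that were higher.

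**Figure D3:**
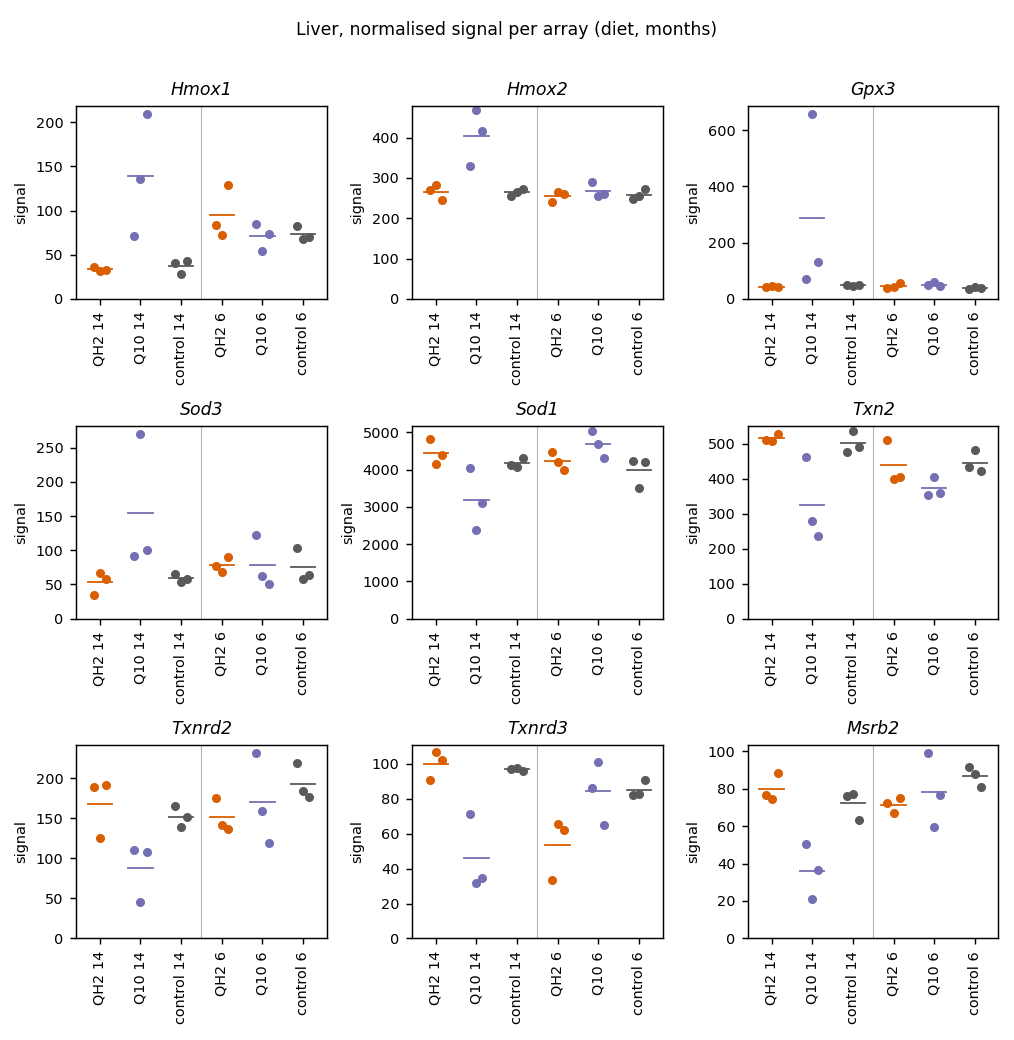
Normalised signal (linear axis from 0) of 9 genes in each liver array on QH2, Q10 and control diet after 14 and 6 months (points, 3 arrays per diet and duration; lines are means). At 14 months QH2 and control arrays lie close together, while Q10 arrays are higher for Hmox1, Hmox2, Gpx3 and Sod3 and lower for Sod1, Txn2, Txnrd2, Txnrd3 and Msrb2.

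The 6 genes higher on QH2 than on Q10 were Sod1 and 5 genes of the thioredoxin and methionine repair systems. Sod2 was not called on its brightest probe set (0.43, adjusted p = 0.0925), but another was called higher on QH2 (0.87, adjusted p = 0.0365). Msrb2 was 76.5, 74.2 and 88.2 on QH2 and 50.3, 20.9 and 36.7 on Q10 (1.21 ± 0.25 SE, adjusted p = 0.00646). Txnrd3 was 90.6, 107 and 102 on QH2 and 71.5, 31.8 and 34.6 on Q10 (1.20 ± 0.28 SE, adjusted p = 0.0123), and Txnrd2 was 189, 125 and 192 on QH2 and 111, 45.5 and 108 on Q10 (1.01 ± 0.29 SE, adjusted p = 0.0318). Txn2 was 510.1, 509 and 528 on QH2 and 463, 281 and 235 on Q10 (0.72 ± 0.18 SE, adjusted p = 0.0198). The other 2 probe sets of Txn2 were also called higher on QH2, by 0.80 and 0.83. Of Txnrd3, another probe set was called higher (1.11, adjusted p = 0.0426) and another was not called (0.63, adjusted p = 0.306). The other Txnrd2 probe sets read 1.65, 0.81 and 0.57 without being called (adjusted p = 0.0723, 0.0984 and 0.173). Msra, the reductase for the other stereoisomer of oxidised methionine, was 619.9, 618 and 687 on QH2 and 550.5, 336 and 489.9 on Q10 (0.51 ± 0.16 SE, adjusted p = 0.0491). Sod1 was 4825, 4145 and 4394 on QH2 and 4035, 2376 and 3113 on Q10 (0.52 ± 0.16 SE, adjusted p = 0.0412). Another Sod1 probe set was also called higher on QH2 (0.57, adjusted p = 0.0348), with no overlap. Of its other probe sets, 2 dimmer ones pointed the opposite way without being called (-0.49, adjusted p = 0.368, and -0.26, adjusted p = 0.604). No probe set of the whole array was called between QH2 and control at this age (0%), and 0 of 34 members had an unadjusted p under 0.05, where 6.18% of all probe sets had one. The interval for Hmox1 on QH2 against control was -0.79 to 0.49, and 29 of 34 members had an interval inside 1 log2 unit either way. Macrophage markers summed to 1633, 2373 and 1434 and the Actb ratio was 7.36, 3.67 and 5.01 in the QH2 livers. Against Q10, 13 of 13 macrophage, 4 of 5 B cell, 6 of 7 neutrophil and 4 of 6 cell cycle markers were lower on QH2, and their part was not tested. The 10 calls between the compounds became 0 under the same 3 alternative fits, and of the 6 fits that left out 1 array all kept Hmox1 and Msrb2. With the Actb ratio as covariate Sod3 turned to 0.08.

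Nfe2l2, Keap1, Nqo1, Gclc, Gclm, Srxn1 and Txnrd1 did not pass in any diet comparison, unlike the NRF2 target Hmox1 in liver. In liver at 14 months Nfe2l2 was 375, 336 and 360.2 on QH2, 421, 556 and 517 on Q10 and 395, 409.6 and 394 on control diet, and QH2 against Q10 gave -0.47 ± 0.16 (SE, adjusted p = 0.0681). Nqo1 was 66.0, 39.8 and 64.4 on QH2, 41.3, 44.3 and 24.4 on Q10 and 50.1, 45.9 and 44.5 on control diet (QH2 against Q10 0.63 ± 0.26 SE, adjusted p = 0.145). For Gclc, Gclm, Srxn1 and Txnrd1, the intervals of QH2 against Q10 were -0.20 to 0.77, -0.29 to 0.48, -0.09 to 0.70 and -0.23 to 0.35. Of 24 further NRF2 targets tested in liver, QH2 against Q10 called 2, where 9.6% of all probe sets were called. Gsta4, a glutathione transferase for lipid aldehydes, was higher (0.87, adjusted p = 0.0286) and Sqstm1, the autophagy receptor that also binds KEAP1, was lower (-0.63, adjusted p = 0.00737). The same share stands beside the lists that follow. Of 8 further regulators, Bach1, a haem-sensing repressor of Hmox1, was lower (-0.66, adjusted p = 0.00833). Of 17 further thiol, selenium and metal genes, Glrx5 (0.55, adjusted p = 0.0174) and Ccs, the copper chaperone for SOD1 (0.67, adjusted p = 0.0370), were higher and Txnip, the inhibitor of thioredoxin (-1.31, adjusted p = 0.00791), was lower. For Q10 against control limma called 0 of 24, 0 of 8 and 0 of 17 genes of these lists in liver, where 5.98% of all probe sets were called. At an unadjusted p under 0.05 there were 8, 2 and 2, where 21.5% of all probe sets had one.

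The Q10 effect in liver at 14 months exceeded that at 6 months for 1 of 34 genes, where 2.31% of all probe sets were called. That gene was Hmox1, with a difference of 1.83 ± 0.43 (SE, adjusted p = 0.0322). At 6 months Hmox1 had 84.7, 54.1 and 73.2 on Q10 and 83.0, 68.1 and 70.2 on control diet (-0.08, adjusted p = 0.989). The call on the difference was lost in the same 3 fits and in 8 of the 12 that left out 1 array. Another Sod1 probe set was also called for the difference in the Q10 effect (-1.77, adjusted p = 0.0164). The brightest Sod1 probe set was not (-0.66, adjusted p = 0.125). The same test called 0 members for QH2 in liver (1 at an unadjusted p under 0.05), and 0 for Q10 and QH2 in kidney (9 and 2), heart (5 and 4) and brain (2 and 4). Of all probe sets it called 0.0074% for Q10 in kidney, 0.0296% for QH2 in brain and 0% in the others. The counts at an unadjusted p have no such share beside them and are not read as a result about the members.

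In kidney at 14 months the methionine sulphoxide reductases and Gpx1 separated the compounds. QH2 against Q10 called 3 of 33 genes, all higher on QH2, where 5.96% of all probe sets were called and 3.95% were higher. Q10 against control called 1 gene, which was lower (0.666% of all probe sets, 0.559% lower). Msrb2 was 215, 157 and 166 on QH2, 104, 76.9 and 96.6 on Q10 and 142, 199 and 161 on control diet. The Q10 kidneys lay below both other groups, at 0.95 ± 0.15 (SE, adjusted p = 0.00213) for QH2 against Q10 and -0.85 ± 0.15 (SE, adjusted p = 0.0120) for Q10 against control. Msra was 1485, 1085 and 1209.8 on QH2 and 870.4, 794 and 911 on Q10, a change of 0.54 ± 0.10 (SE, adjusted p = 0.00432) with no overlap, and 1043, 1188 and 1136 on control diet (Q10 against control -0.39, adjusted p = 0.0740). Gpx1 was 6422, 6955 and 7390.5 on QH2 and 5993, 5188 and 5703 on Q10 (0.30 ± 0.07 SE, adjusted p = 0.0170), with 6737, 6929.9 and 6766 on control diet. Sod2 and Gpx4 were not called on their brightest probe sets (0.17, adjusted p = 0.264, and 0.19, adjusted p = 0.156). Other probe sets were called higher on QH2, for Sod2 (0.47, adjusted p = 0.00145, and 0.93, adjusted p = 0.0314) and Gpx4 (0.32, adjusted p = 0.0122). That Gpx4 probe set was also called lower for Q10 against control (-0.30, adjusted p = 0.0468). QH2 against control called 0 of 33 members by limma (0% of all probe sets), and 4 had an unadjusted p under 0.05, where 5.78% of all probe sets had one. The intervals were -0.21 to 0.41 for Msrb2 and -0.04 to 0.36 for Msra. Of 24 further NRF2 targets, Q10 against control called Gsta3 (-1.33, adjusted p = 0.00268) and Abcc4 (-0.64, adjusted p = 0.0156), a glutathione transferase and an organic anion exporter, both lower on Q10. QH2 against Q10 called Gsta3 (1.40), Tkt (1.02), Abcc4 (0.67) and Blvra (0.32), all higher on QH2. Q10 kidneys enter all of these comparisons.

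Macrophage markers in these kidneys summed to 3094, 2387 and 3059.8 on QH2, 3352, 15183 and 7688 on Q10 and 4940.3, 2464 and 6100.5 on control diet, and 4 of 11 tested were lower on QH2 than on Q10. The part of these cells in the kidney result was not tested. Msrb2 and Msra kept their calls between the compounds in all 6 fits that left out 1 array, and with the Actb ratio as covariate. With only the groups compared in the fit none of the 4 kidney calls remained (adjusted p = 0.170 to 0.378), and Msrb2 for Q10 against control was lost without the second array of either group, as was Gpx1 between the compounds without the second Q10 or the third QH2 array.

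In heart and brain no diet comparison called a member by limma, and at an unadjusted p under 0.05 the 6 comparisons of a tissue held 1 to 11 members in heart and 1 to 3 in brain. No share of all probe sets at that threshold stands beside these ranges, so they do not set the members apart. Of all probe sets 0% to 0.0666% were called in heart and 0% to 0.0111% in brain. The nearest in heart was Mt2 at 14 months, at 356, 194 and 312 on QH2, 402, 938 and 627 on Q10 and 532, 435 and 401 on control diet, with -1.15 ± 0.23 (SE, adjusted p = 0.0747) for QH2 against Q10. No probe set of the array was called in that comparison (0%), and 9 of 33 members had an unadjusted p under 0.05, where 11% of all probe sets had one. Its partner Mt1 was 2958, 2019 and 1987 on QH2 and 2856, 4948 and 3202 on Q10 (-0.64 ± 0.17 SE, adjusted p = 0.132), and the groups overlapped. Prdx3, the mitochondrial peroxiredoxin, was 1842, 1753 and 1836 on Q10 and 2287, 2409 and 2282 on control diet, without overlap (-0.36 ± 0.09 SE, adjusted p = 0.114). In brain the smallest adjusted p at 14 months was that of Gpx2 for QH2 against Q10 (-0.95, adjusted p = 0.688).

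QH2 was set against Q10 in 8 tissue and duration pairs, with p-values adjusted over all probe sets within each. Members differed in 2 of the 8. At 14 months, the 95% interval lay inside 1 log2 unit either way for 21 of 34 genes in liver, 32 of 33 in kidney, 30 of 33 in heart and 33 of 35 in brain. At 6 months it did so for 26 of 34, 33 of 33, 31 of 33 and 33 of 35. Differences smaller than these intervals cannot be seen with 3 mice per group.

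Duration was then compared with the 3 diets averaged, 9 arrays at 14 months against 9 at 6 months per tissue. In 31 of the 35 genes at least 1 tissue was called. Of these, 6 were called higher and lower in different tissues, and 7 were called in 2 or more tissues in the same direction. No share of all probe sets was taken to set beside the count of 31. Brain called 24 of 35 genes (56% of all probe sets), of which 22 were higher at 14 months (28.3% of all) and 2 were lower (27.6% of all). Kidney called 11 of 33 (40.4% of all), 3 higher (19.4%) and 8 lower (21%). Heart called 8 of 33 (18.8%), 6 higher (9.41%) and 2 lower (9.36%), and liver 6 of 34 (20.6%), 1 higher (11.1%) and 5 lower (9.51%). The median over the members was 0.24 in brain, -0.08 in kidney, 0.02 in heart and -0.01 in liver. Over all probe sets it was 0.01, -0.03, 0.02 and -0.02 in the same order. The plot of duration effects gives each gene with its interval.

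**Figure D4:**
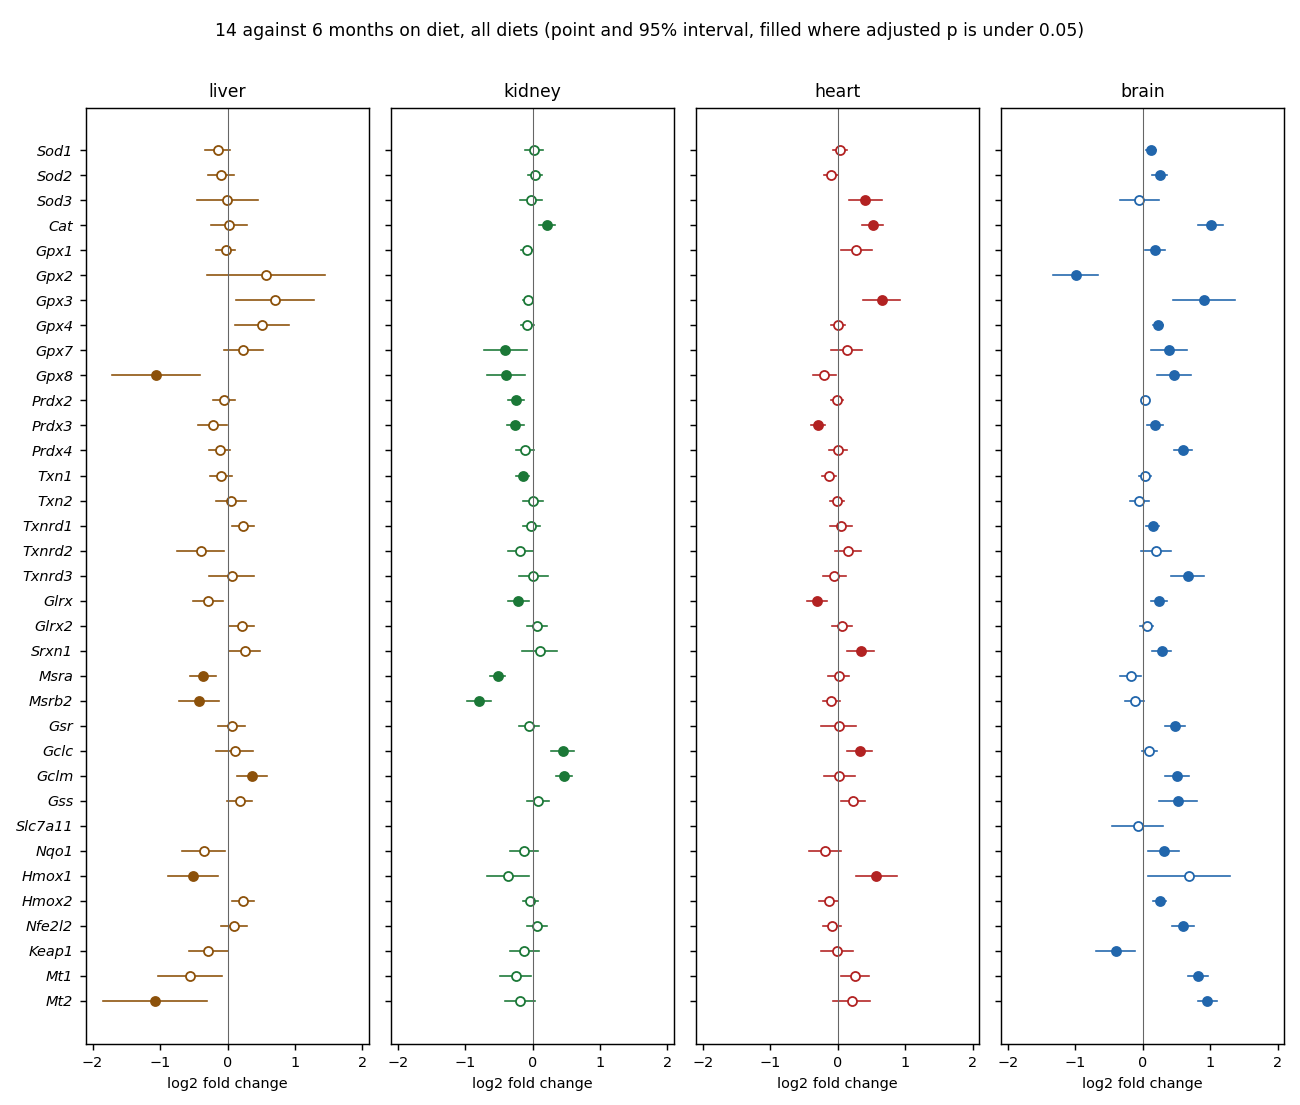
Log2 fold change of each gene, 14 against 6 months with diets averaged, in 4 tissues (points with 95% interval, 9 arrays against 9; filled points have adjusted p under 0.05). In brain 22 filled points lie above 0 and 2 below, while kidney holds 3 above and 8 below.

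In brain both metallothioneins, 3 of 4 superoxide dismutase and catalase genes, 5 of 6 glutathione peroxidases and 3 of 5 genes of glutathione supply were higher at 14 months. Catalase had signals of 299, 389 and 476 at 14 months against 122, 195 and 225 at 6 months (lowest, median and highest of 9), a log2 fold change of 1.01 ± 0.09 (SE, adjusted p = 3.47e-08). The lowest value at 14 months exceeded the highest at 6 months. Mt1 was 3902, 4692 and 6278 at 14 months against 2230.3, 2669.9 and 3067 at 6 months (0.82 ± 0.07 SE, adjusted p = 1.75e-08), and Mt2 was 1942, 2425 and 3953 at 14 months against 1131, 1259 and 1507 at 6 months (0.95 ± 0.07 SE, adjusted p = 1.49e-09). Their promoters are the 2 printed above with repeated metal response cores, whose part in this change was not tested. Prdx4 was 245, 278 and 302 at 14 months against 165, 174 and 223 at 6 months (0.59 ± 0.06 SE, adjusted p = 2.24e-07). Txnrd3 (0.67, adjusted p = 8.79e-05) and Gpx4 (0.23, adjusted p = 2.28e-05) likewise had no overlap between the 2 ages. That made 6 of 35 genes with no overlap, all higher at 14 months, where 17.6% of all probe sets had none (8.56% higher).

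Gpx3 rose to 199.9, 224 and 268 at 14 months, against 46.8, 141 and 217 at 6 months (0.91 ± 0.22 SE, adjusted p = 0.00171). The smaller steps of Gpx1 (0.18), Gpx7 (0.39) and Gpx8 (0.46) passed as well, whereas Gpx2 fell (-1.0, adjusted p = 3.36e-05). Among the glutathione genes Gclm (0.51), Gss (0.53) and Gsr (0.48) passed and Gclc did not (0.10, adjusted p = 0.132). A second Gsr probe set was not called (0.09, adjusted p = 0.306), so the rise of Gsr rests on 1 probe set. A second Gclc probe set was called higher (0.17, adjusted p = 0.0462). Nfe2l2 itself was 187, 235 and 257 at 14 months against 131, 152 and 189 at 6 months (0.60 ± 0.08 SE, adjusted p = 2.31e-06), and Keap1, its inhibitor, was 109, 172 and 208 at 14 months against 145, 227 and 275 at 6 months (-0.40 ± 0.14 SE, adjusted p = 0.0175). A second Keap1 probe set read 0.06, and without normalisation the first turned to 0.07, so the direction of Keap1 is uncertain. Of the NRF2 targets Nqo1 (0.31), Srxn1 (0.28) and Txnrd1 (0.15) were higher, though a second Txnrd1 probe set was -0.25. None of 3 other Srxn1 probe sets was called, at 0.29, -0.29 and -0.10. Hmox1 was not called in brain (0.69, adjusted p = 0.0533), while Hmox2 was (0.25, adjusted p = 0.000168). All 24 called brain genes kept their direction in each of the 3 diets, and all but Gpx1 kept their call in each of the 18 fits that left out 1 array. The plot of single brain arrays shows 6 of these genes.

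**Figure D5:**
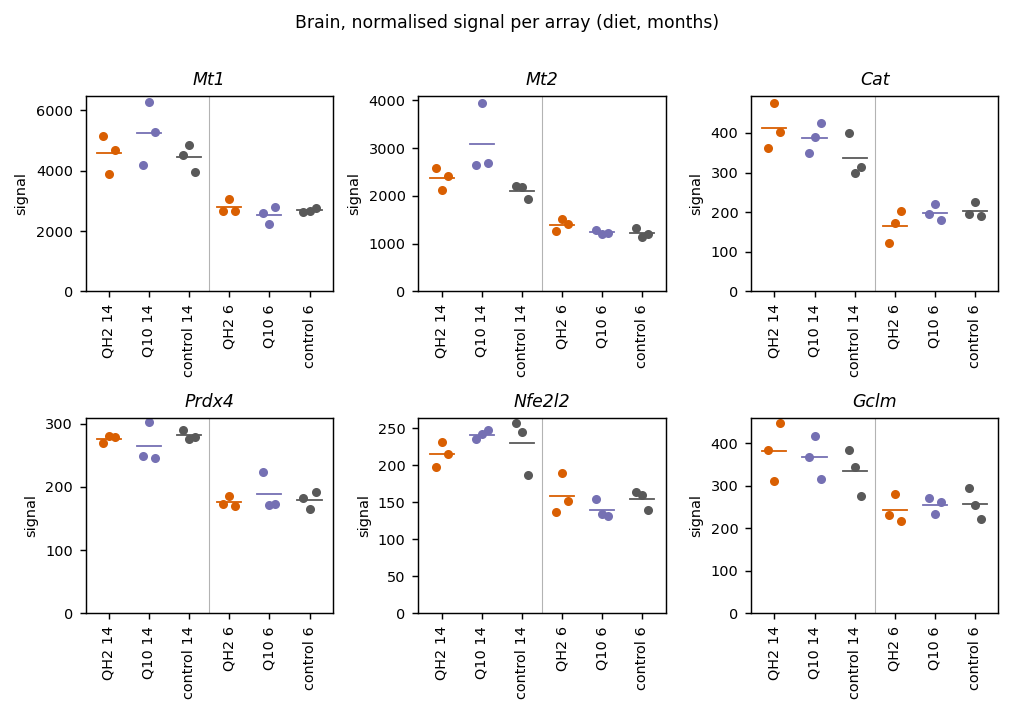
Normalised signal (linear axis from 0) of 6 genes in each brain array, by diet, at 14 and 6 months (points, 3 arrays per diet and duration; lines are means). For Mt1, Mt2, Cat and Prdx4 every array at 14 months lies above every array at 6 months, in all 3 diets.

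Glial markers moved with duration in the same brains. Of 6 astrocyte markers 5 were higher at 14 months and 1 lower, and their summed signal was 15905 to 17970.5 at 14 months against 13524 to 14546 at 6 months, with no marker at 0. All 5 oligodendrocyte markers tested were higher (9145 to 11759 against 7398 to 10818 at 6 months), and of 11 macrophage markers 6 were higher and 1 lower. Of 8 neuron markers 2 were higher and 4 lower (25067 to 26758 against 25934 to 29308 at 6 months). The part of the cell makeup in the brain result was not tested. Beside each count of this paragraph, 28.3% of all probe sets were higher at 14 months and 27.6% lower. Of 21 further NRF2 targets 13 were higher and 1 lower. The smallest p belonged to Mgst1, a microsomal glutathione transferase (1.26, adjusted p = 5.97e-11), Tkt, transketolase of the pentose phosphate pathway (0.71, adjusted p = 1.81e-08), Fth1, the ferritin heavy chain (0.22, adjusted p = 6.63e-07), and Abcc4 (0.83, adjusted p = 1.26e-05). Of 7 further regulators 1 was higher, Bach1 (0.74, adjusted p = 4.21e-09), and 3 were lower: Nfe2l1 (-0.34), Rbx1 (-0.59), a subunit of the ligase that KEAP1 serves, and Mafg (-0.23), a partner of NRF2. Of 17 further thiol, selenium and metal genes 8 were higher and 4 lower, among them Selenop (0.49, adjusted p = 1.25e-07), the selenium transport protein.

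In kidney 8 genes were lower at 14 months, among them both methionine sulphoxide reductases, and 3 were higher, among them both subunits of glutamate-cysteine ligase. Msrb2 was 76.9, 157 and 215 at 14 months against 198, 241 and 279 at 6 months (-0.80 ± 0.09 SE, adjusted p = 2.83e-06), and Msra was 794, 1085 and 1485 at 14 months against 1404, 1536 and 1613 at 6 months (-0.52 ± 0.06 SE, adjusted p = 2.53e-06). Gpx7, Gpx8, Prdx2, Prdx3, Txn1 and Glrx fell by less, with changes of -0.41, -0.40, -0.24, -0.25, -0.15 and -0.21. These 6 changed sign when the values were used without normalisation, under which all probe sets shifted by a median of 0.40. Gclc was 1374, 1656 and 2050.5 at 14 months against 965, 1222 and 1617 at 6 months (0.45 ± 0.08 SE, adjusted p = 0.000303), and Gclm was 1690.03, 1922 and 2182 against 1209.8, 1376 and 1781 at 6 months (0.46 ± 0.05 SE, adjusted p = 6.91e-06). Another probe set of Gclc (-0.24, adjusted p = 0.0301) and another of Gclm (-0.25, adjusted p = 0.0438) were called lower, opposite to the brighter ones. The direction of both genes in kidney is therefore uncertain. Catalase was slightly higher (0.21, adjusted p = 0.00793). All 11 kept their direction in each diet, but not their size. Msrb2 changed by -0.27 on QH2, -1.56 on Q10 and -0.56 on control diet, and Msra by -0.24, -0.82 and -0.49. Gclc and Gclm rose most on control diet (0.69 and 0.66). Of the 18 fits that left out 1 array, Gpx7 lost its call in 11, Glrx in 4 and Gpx8 in 3. Of 24 further NRF2 targets 1 was higher and 6 lower, led by Gsta3 (-1.02, adjusted p = 1.04e-06) and Tkt (-0.98, adjusted p = 3.37e-06). Beside this list and the counts that follow, 19.4% of all probe sets were higher and 21% lower. Of 7 further regulators 2 were higher, and of 18 further thiol, selenium and metal genes 2 were higher and 7 lower. B cell (5 of 5), macrophage (7 of 11), T cell (3 of 5) and cell cycle (6 of 6) markers were higher at 14 months in the same kidneys, and 4 of 7 endothelial markers were lower. Their part in these changes was not tested.

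In heart 6 genes were higher at 14 months, among them the secreted Gpx3 and Sod3 and peroxisomal catalase, and 2 were lower. Gpx3 was 1575, 2072 and 3773 at 14 months against 851, 1364 and 1731 at 6 months (0.65 ± 0.13 SE, adjusted p = 0.00156), catalase was 1222, 1549 and 1591 against 887, 1012 and 1361 at 6 months (0.52 ± 0.07 SE, adjusted p = 7.58e-05), and Sod3 was 154, 198 and 259.8 against 103, 158 and 188 at 6 months (0.41 ± 0.12 SE, adjusted p = 0.0175). The ranges of the 2 ages overlapped in each. Hmox1 (0.57, adjusted p = 0.00838), Srxn1 (0.34, adjusted p = 0.0170) and Gclc (0.33, adjusted p = 0.0152) also rose, Hmox1 not in every diet. No other probe set of Srxn1, Gclc or Sod3 was called (0.08 to 0.87, adjusted p = 0.0751 to 0.641). Gpx4, Sod2 and Sod1 were not called on their brightest probe sets (0.01, -0.11 and 0.03). Another probe set of each was called higher (0.26, adjusted p = 5.82e-05, 0.39, adjusted p = 0.00098, and 0.20, adjusted p = 0.00984). Prdx3 (-0.29, adjusted p = 0.000399) and Glrx (-0.31, adjusted p = 0.00367) fell, but both were positive without normalisation, where all probe sets shifted by 0.80. Of 23 further NRF2 targets 4 were higher and 3 lower, with Fth1 (0.27, adjusted p = 4.16e-05) and Me1 (-0.48, adjusted p = 6.73e-05), malic enzyme, among them, and of 15 further thiol, selenium and metal genes 2 were higher and 4 lower. Beside these lists, 9.41% of all probe sets were higher and 9.36% lower. B cell (3 of 5) and cell cycle (4 of 5) markers were higher, macrophage markers were 2 higher and 1 lower of 11, and their part was not tested.

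In liver 5 genes fell and Gclm rose at 14 months, though a second Gclm probe set read -0.25 without being called. Gclc was not called (0.11, adjusted p = 0.624), but another of its probe sets was called lower (-0.69, adjusted p = 0.00183). Mt2 was 522, 715 and 4164 at 14 months against 1212, 2615 and 5122 at 6 months (-1.07 ± 0.37 SE, adjusted p = 0.0458), the opposite sign to brain. Mt1 was not called (-0.56, adjusted p = 0.0876). Hmox1 averaged lower at 14 months (-0.51 ± 0.18 SE, adjusted p = 0.0451), but the change was -1.43 on QH2, 0.86 on Q10 and -0.97 on control diet. Gpx8, which was dim here (-1.06, adjusted p = 0.0211), and Msrb2 (-0.42, adjusted p = 0.0426) also had opposite signs between diets, whereas Msra (-0.37, adjusted p = 0.00837), Mt2 and Gclm (0.36, adjusted p = 0.0222) kept theirs in all 3. Of the 18 fits that left out 1 liver array, Hmox1 lost its call in 15, Msrb2 in 14 and Mt2 in 12. Of 24 further NRF2 targets 2 were higher and 4 lower, among them Me1 (-1.53, adjusted p = 0.000996), Gsta4 (-0.55, adjusted p = 0.00939) and the canalicular exporter Abcc2 (0.88, adjusted p = 0.00285). Beside this list and the counts that follow, 11.1% of all probe sets were higher and 9.51% lower. Of 8 further regulators only Mafg was called (0.43, adjusted p = 0.00823), and of 17 further thiol, selenium and metal genes 0 were higher and 5 lower. B cell (5 of 5) and macrophage (1 of 13) markers were higher, and their part was not tested.

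Tissues were compared directly with an F test of whether an effect differed between the 4 tissues, in 1 fit of all 72 arrays with 33 genes tested. For 14 against 6 months the effect differed for 24 of 33 genes, where 42.7% of all probe sets passed. Catalase is an example, at 1.01 in brain, 0.52 in heart, 0.21 in kidney and 0.02 in liver (adjusted p = 3.80e-07). Prdx4 gave 0.59 in brain, 0.00 in heart, -0.11 in kidney and -0.12 in liver (adjusted p = 5.30e-10). Within liver, however, limma called another Prdx4 probe set higher at 14 months (0.52, adjusted p = 0.0402). Mt2 was 0.95 in brain, 0.21 in heart, -0.18 in kidney and -1.07 in liver (adjusted p = 2.88e-05), and Nfe2l2 was 0.60 in brain, -0.09 in heart, 0.07 in kidney and 0.09 in liver (adjusted p = 3.61e-06). The effect of Q10 against control at 14 months differed between tissues for 7 of 33 genes (3.47% of all probe sets). Hmox2 was -0.04 in brain, -0.18 in heart, 0.16 in kidney and 0.60 in liver (adjusted p = 0.000871), and Msrb2 was 0.21 in brain, -0.31 in heart, -0.85 in kidney and -1.06 in liver (adjusted p = 0.000887). For Q10 against control at 6 months and QH2 against control at 14 and at 6 months, limma's F test called 0 of 33 members (0.303%, 0.0296% and 0.311% of all probe sets), with 0, 1 and 2 at an unadjusted p under 0.05.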

How the data were processed

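Members and gene lists were chosen with earlier results of these data known. The values are intensities, 1 linear signal per probe set and array, deposited by the authors and made with GCOS per the submitters' processing notes; its version, the scaling and the scan batches were not given in those sources. RNA was copied into biotinylated cRNA, per the labels' protocols. Diet, duration, tissue and replicate number came from the labels (72 arrays, 24 groups of 3, taken as separate mice).

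The 64 control probe sets of 45101 were left out. Arrays were quantile normalised within a tissue (all 72 together for tissue levels), 1 was added and log2 taken. The 27022 probe sets whose tissue mean exceeded its 40th percentile were tested with limma 3.58.1 in R 4.3.3: 1 mean per group, all groups of the tissue in the fit, moderated tests with an intensity trend, Benjamini-Hochberg adjustment within a comparison. Each tissue had 9 comparisons (36 over the series), with 6 tissue pairs and F tests of effects across tissues. The diet, duration, tissue and F tests were tested on simulated data.

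Genes came from the platform annotation: 34945 probe sets had 1 symbol, 932 several and 9160 none. A gene is its brightest probe set with 1 symbol over 72 arrays. Named are members that were called, led a tissue or define a role, and up to 4 called genes by smallest p of 3 further lists: other NRF2 targets (24 of 26 genes with a probe set), other regulators (9) and other thiol, selenium and metal genes (20 of 21). Promoter sequences are RefSeq's (GRCm38.p6). Alternatives were no or other scaling, offset 16, no filter, no trend, array weights, a covariate for the Actb 3' to 5' ratio, the mean of a gene's probe sets, only the groups compared, replicate block, and leaving out arrays. That without Q10 liver arrays 2 and 3 and those of the F tests were added after the data were seen. The number of arrays limits precision.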

Additional observations from a re-analysis of the deposited data

Results flagged for a closer look

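Hmox1 in liver stood out because the effect of Q10 against control differed between the 2 durations: it was 1.75 at 14 months and -0.08 at 6 months, and limma's test of the difference gave an adjusted p of 0.0322. The call was lost in 8 of the 12 fits that left out 1 array.

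The effect of Q10 against control at 14 months differed between the 4 tissues, by limma's F test, for 7 genes, given here as log2 fold changes. Sod1 gave 0.06 in brain, 0.09 in heart, 0.22 in kidney and -0.43 in liver (adjusted p = 0.019). Gpx3 gave -0.13 in brain, -0.08 in heart, 0.00 in kidney and 1.90 in liver (adjusted p = 0.0204). Gpx8 gave 0.14 in brain, -0.48 in heart, 0.28 in kidney and 1.73 in liver (adjusted p = 0.00276). Txn2 gave -0.08 in brain, -0.07 in heart, 0.01 in kidney and -0.68 in liver (adjusted p = 0.0498). Txnrd3 gave 0.05 in brain, -0.04 in heart, -0.04 in kidney and -1.16 in liver (adjusted p = 0.0119). Msrb2 gave 0.21 in brain, -0.31 in heart, -0.85 in kidney and -1.06 in liver (adjusted p = 0.000887). Hmox2 gave -0.04 in brain, -0.18 in heart, 0.16 in kidney and 0.60 in liver (adjusted p = 0.000871). All but Gpx8 and Sod1 were also called against control in liver alone. Gpx8 in liver was dim (9.68, 19.9 and 10.3 on Q10 and 6.79, 1.77 and 2.17 on control diet), so the size of its change there cannot be read.

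The change at 14 against 6 months differed between tissues for 24 genes, by the same test. Among the superoxide and peroxide enzymes, the log2 changes were as follows. Sod2 gave 0.25 in brain, -0.11 in heart, 0.04 in kidney and -0.09 in liver (adjusted p = 0.00251). Cat gave 1.01 in brain, 0.52 in heart, 0.21 in kidney and 0.02 in liver (adjusted p = 3.8e-07). Gpx1 gave 0.18 in brain, 0.28 in heart, -0.08 in kidney and -0.03 in liver (adjusted p = 0.0216). Gpx3 gave 0.91 in brain, 0.65 in heart, -0.07 in kidney and 0.71 in liver (adjusted p = 0.0309). Gpx4 gave 0.23 in brain, 0.01 in heart, -0.08 in kidney and 0.51 in liver (adjusted p = 0.00952). Another Gpx4 probe set gave 0.33 in brain, 0.26 in heart, -0.11 in kidney and 0.24 in liver, each called within its tissue. Gpx7 gave 0.39 in brain, 0.13 in heart, -0.41 in kidney and 0.23 in liver (adjusted p = 0.0023). Gpx8 gave 0.46 in brain, -0.20 in heart, -0.40 in kidney and -1.06 in liver (adjusted p = 1.23e-05). Prdx2 gave 0.04 in brain, -0.01 in heart, -0.24 in kidney and -0.05 in liver (adjusted p = 0.00591). Prdx3 gave 0.18 in brain, -0.29 in heart, -0.25 in kidney and -0.22 in liver (adjusted p = 0.000228).

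Prdx4 and genes of the thioredoxin, glutaredoxin and methionine repair systems passed as well. Prdx4 gave 0.59 in brain, 0.00 in heart, -0.11 in kidney and -0.12 in liver (adjusted p = 5.3e-10), but another Prdx4 probe set gave 0.52 in liver. Txnrd2 gave 0.20 in brain, 0.15 in heart, -0.18 in kidney and -0.40 in liver (adjusted p = 0.00926). Txnrd3 gave 0.67 in brain, -0.05 in heart, 0.01 in kidney and 0.06 in liver (adjusted p = 0.000986). Glrx gave 0.24 in brain, -0.31 in heart, -0.21 in kidney and -0.29 in liver (adjusted p = 8.3e-05). Msra gave -0.18 in brain, 0.02 in heart, -0.52 in kidney and -0.37 in liver (adjusted p = 0.000295). Msrb2 gave -0.12 in brain, -0.09 in heart, -0.80 in kidney and -0.42 in liver (adjusted p = 4.69e-05).

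The glutathione, quinone and haem genes, the regulator and the metallothioneins complete the list. Gsr gave 0.48 in brain, 0.01 in heart, -0.05 in kidney and 0.06 in liver (adjusted p = 0.00294). Another Gsr probe set was not called within brain (0.09) and was called lower within kidney (-0.56) and liver (-0.46). Gclm gave 0.51 in brain, 0.02 in heart, 0.46 in kidney and 0.36 in liver (adjusted p = 0.0109). Gss gave 0.53 in brain, 0.23 in heart, 0.08 in kidney and 0.18 in liver (adjusted p = 0.0286). Nqo1 gave 0.31 in brain, -0.18 in heart, -0.13 in kidney and -0.35 in liver (adjusted p = 0.0095). Hmox1 gave 0.69 in brain, 0.57 in heart, -0.37 in kidney and -0.51 in liver (adjusted p = 0.000506). Hmox2 gave 0.25 in brain, -0.13 in heart, -0.03 in kidney and 0.22 in liver (adjusted p = 8.15e-05). Nfe2l2 gave 0.60 in brain, -0.09 in heart, 0.07 in kidney and 0.09 in liver (adjusted p = 3.61e-06). Mt1 gave 0.82 in brain, 0.25 in heart, -0.25 in kidney and -0.56 in liver (adjusted p = 7.52e-06). Mt2 gave 0.95 in brain, 0.21 in heart, -0.18 in kidney and -1.07 in liver (adjusted p = 2.88e-05).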

How the results depend on the processing

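Of 797 counts of members called under an alternative, 725 stayed within 1.5 times the main count and 72 moved. Many main counts were 0, as in 20 of the 24 diet comparisons, so these totals say little on how stable the calls were. Of the 6 fits that left out 1 array at 14 months, liver Q10 against control moved in 6 and QH2 against Q10 in 4. In kidney the same comparisons moved in 3 and 0. The liver Q10 effect between durations moved in 9 of 12. Of 1758 values for single genes, 1484 kept direction and call, 264 kept direction but lost the call and 10 reversed.

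The 6 members called in liver at 14 months for Q10 against control became 2 with the values as deposited, 3 without the intensity trend, 22 with array weights, and 0 with the Actb ratio as covariate, with only the groups compared in the fit, or without Q10 arrays 2 and 3. The 10 for QH2 against Q10 became 3, 5, 22, 0, 0 and 0 in the same order. The 6 for 14 against 6 months became 1, 2 and 13 under the first 3, and the 1 for the Q10 effect between durations became 0, 0, 11, 0, 0 and 0 under the 6. In kidney, Q10 against control (1 member) gave 0 with the values as deposited, without the trend or with only the groups compared, 3 with array weights and 2 with the Actb covariate, and QH2 against Q10 (3) gave 0 as deposited, 0 with only the groups compared and 5 with the mean of all probe sets of a gene. In heart at 14 months QH2 against Q10 (0) gave 2 as deposited and 4 with array weights, Q10 against control (0) gave 2 with array weights, and 14 against 6 months (8) gave 33 as deposited.

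Among tissue levels, the values as deposited gave 5 members highest and 7 lowest in liver, 1 lowest in kidney and 2 highest in brain. The trimmed mean gave 1 lowest in kidney, and testing without the filter gave 2 highest in brain. The F test for Q10 at 14 months (7) gave 2 as deposited. Leaving out 1 array at a time, members called ranged from 1 to 16 for liver Q10 against control, 2 to 14 for liver QH2 against Q10, 3 to 13 for liver 14 against 6 months, 0 to 7 for the liver Q10 effect between durations, 0 to 3 and 2 to 4 for kidney Q10 against control and QH2 against Q10, 9 to 13 for kidney 14 against 6 months, 0 to 1 and 0 to 5 for heart QH2 against control and QH2 against Q10 at 14 months, 8 to 10 for heart and 23 to 26 for brain 14 against 6 months, and 0 to 1 for members highest in brain. The highest liver counts came without Q10 array 1.

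Sod3 in liver, QH2 against Q10, reversed to 0.0814 with the Actb covariate. The other 9 reversals were at 14 against 6 months with the values as deposited: in kidney Gpx7 0.18, Gpx8 0.00593, Prdx2 0.0182, Prdx3 0.0286, Txn1 0.0659 and Glrx 0.13, in heart Prdx3 0.49 and Glrx 0.52, and in brain Keap1 0.0699. The cause was not tested. Without normalisation the median of all probe sets at 14 against 6 months moved to 0.42 in brain, 0.80 in heart, 0.40 in kidney and 0.20 in liver, and 88.8%, 99.8%, 96.8% and 93.5% of calls were then higher, against 50.6%, 50.1%, 48.0% and 53.8%.

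Arrays of the same replicate number did not all deviate together: correlations of their deviations from the group means had medians of 0.01 in brain, 0.00 in heart, -0.01 in kidney and 0.00 in liver, with 4 of 45 pairs over 0.1 in brain (up to 0.166), 1 in liver and 0 in heart and kidney. Across tissues within a diet and duration the median was 0.01 and 9 of 108 pairs exceeded 0.1 (up to 0.364). With the replicate block, 7 members were called for liver Q10 against control, 11 for QH2 against Q10 and 24 for brain 14 against 6 months, and no count moved by over 1.5 times. Signal near background, as for Gpx2, Slc7a11 and, in liver, Gpx8, and 3 arrays per group limit what could be seen.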

Other observations

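2 members stand outside the tissue comparison because their signal was dim. Gpx2, the gastrointestinal glutathione peroxidase, had median signals of 20.9 in brain, 6.47 in heart, 5.24 in kidney and 15.9 in liver, with 18 arrays each. Slc7a11, the cystine importer, had 14.7 in brain, 4.59 in heart, 4.94 in kidney and 6.73 in liver. Both had their highest median in brain, where Slc7a11 passed the filter and had a log2 change of -0.08 (adjusted p = 0.734) at 14 against 6 months.

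Several genes had probe sets that disagreed at 14 against 6 months, and those given here are examples, not all. Sod1 gave 0.02 in kidney and -0.15 in liver on its brightest probe set, and 0.75 and 0.81 on another. Srxn1 in kidney gave 0.10 and, on another, -0.52. Txn2 in brain gave -0.05 and, on another, 0.30. In kidney the brighter Txnrd1 probe set gave -0.02 and another gave -1.13. Nfe2l2 gave 0.07 in kidney on its brightest probe set and -0.62 on another. In brain Sod1 gave 0.12 and, on another probe set, -0.42. In liver Sod2 gave -0.09 and, on another, -1.20. In heart Sod2 gave -0.11 and, on another, 0.39.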
